A study of Mus musculus with 63 samples.

Results

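The BH3-only genes examined here were Bcl2l11 (BIM), Bbc3 (PUMA), Pmaip1 (NOXA), Bmf, Bid, Bad, Bik and Hrk. They are 8 of the 19938 genes measured by a probe set with a single gene symbol, and were chosen by name as canonical BH3-only members of the BCL2 family. These genes and the gene lists used below were chosen with earlier results of these data known, so their counts are descriptions. Each of the 8 had 1 single-symbol probe set, so the rule of taking the brightest one left no choice to make.

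The arrays held RNA from lymph node lymphomas of C57BL/6 mice carrying the Eµ-myc transgene, in which an immunoglobulin heavy-chain enhancer drives Myc in B-lineage cells. There were 32 arrays labelled native and 31 labelled CTX 4h, which stands for cyclophosphamide, an alkylating chemotherapy drug. For 29 of the 31 the labels describe mice that received transplanted lymphomas and 1 intraperitoneal dose of 300 mg/kg. The labels of the other 2, CTX 4h replicates 30 and 31, give no dose. These 2 are also the only CTX 4h arrays made from 300 ng of RNA. The text describing the series' design speaks of therapy-naive lymphomas, whereas these 31 arrays carry the treatment label CTX 4h. The groups follow the treatment label, and each difference below is one between those labels. RNA came from cells used without culture, so other cells of the node can contribute to each value, and in such bulk RNA a change in cell numbers and a change in RNA per cell cannot be told apart. Each array had its own lymphoma number, and p-values measure only the spread between these lymphomas.

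BH3-only proteins carry a single BCL2 homology domain, the BH3 helix, and start the mitochondrial pathway of apoptosis. They bind the groove of survival proteins such as BCL2, BCL-XL and MCL1, and some also activate BAX and BAK directly, which then permeabilise the outer mitochondrial membrane. In Eµ-myc mice, loss of Bim or Puma is known to speed lymphoma onset, and PUMA and NOXA are textbook transcriptional targets of p53.

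The arrays fell into 4 sets by the amount of RNA labelled and by the first digit of the lymphoma number, called batches below, although the labels do not say that numbers mark a processing batch. At 100 ng, numbers starting with 1 held 6 CTX 4h and 7 native arrays, numbers starting with 8 held 9 and 3, and numbers starting with 9 held 14 and 5. At 300 ng there were 2 CTX 4h and 17 native arrays. Array medians ranged from 6.53 to 7.11 on the deposited log2 scale, and no array duplicated another. The 9 measured pan-B-cell markers had means of 8.80 to 13.01 in native and 8.70 to 12.95 in CTX 4h arrays. Native replicates 8 and 19 stood apart, with mean correlations to the other arrays of 0.906 and 0.915 and Myc levels of 11.39 and 10.64.

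The 250 bases upstream of the annotated Bcl2l11 start are shown because Bcl2l11 had the largest difference among the 8 genes and is a known target of FOXO factors, whose core motif lies there. The sequence is that of RefSeq, build GRCm38.p6, chr2:128125788-128126037, plus strand, and the capitals mark the forkhead core GTAAACA, whose first base is at position -227 from the start.

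Bcl2l11 upstream: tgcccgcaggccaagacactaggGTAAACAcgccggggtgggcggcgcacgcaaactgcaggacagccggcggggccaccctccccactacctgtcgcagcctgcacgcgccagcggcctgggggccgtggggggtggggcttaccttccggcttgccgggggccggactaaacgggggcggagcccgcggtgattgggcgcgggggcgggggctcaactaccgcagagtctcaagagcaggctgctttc

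Windows from 250 bases before to 50 after a start were searched on both strands in 12 windows of 6 members, with none used for Pmaip1 and Bik. GTAAACA occurred in 3.65% of all 32851 windows and in 2 of the 12 member windows, for Bcl2l11 and Bbc3. These genes had 2 and 3 windows. The MYC E-box CACGTG occurred in 7.15% of all windows and in 1 member window, for Bbc3. The C/EBP letters TTGCNNNAA were in 9.56% of windows and, among members, in Bid. A p53 half-site occurred in 8.36% of windows and, among members, in Bmf. The AP-1 letters TGANTCA, in 7.81% of windows, and the glucocorticoid receptor palindrome, in 0.475%, were in none of the 12. The matches in the other members, with 6 bases on each side and the match in capitals, are shown to set them beside that of Bcl2l11. Unlike that match, they lie in windows of starts other than the annotated gene start.

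Bbc3, E-box: cgggcgCACGTGgcggcg

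Bbc3, forkhead core: cgggttTGTTTACaaacaa

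Bid, C/EBP: cttgggTTTCCGCAAagtgtg

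Bmf, p53 half-site: agtgaaGGGCTTGCCTcttgcc

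In CTX 4h arrays, 3 of the 8 genes were higher and none was lower, against 1.41% of all genes higher, 1.26% lower and 2.67% in either direction (limma with RNA input as a term, Benjamini-Hochberg adjusted p under 0.05 over 19938 genes). The 3 were Bcl2l11, Bbc3 and Pmaip1, with changes of 1.33 to 1.55 fold. The median log2 difference over all 8 was 0.18, and that over all genes was -0.01. When number series joined RNA input as a term, 2 of the 8 passed, against 1.04% of all genes: Bcl2l11 at 0.68 (limma adjusted p = 0.00831) and Bbc3 at 0.38 (0.0464), while Pmaip1 at 0.42 did not (0.0571). With the 4 batches as a term the same 2 passed, against 1.05% of all genes, and the adjusted p was 0.00820, 0.0485 and 0.0618. Without the 2 CTX 4h arrays of 300 ng, whose labels give no dose, none of the 3 passed, where 0.582% of all genes did. The limma adjusted p was then 0.0734 for Bcl2l11, 0.0886 for Bbc3 and 0.193 for Pmaip1, with differences of 0.56, 0.37 and 0.34. Among 100 ng arrays alone 0 of the 8 passed adjustment, against 0.251% of all genes in either direction. The limma adjusted p was 0.169 for Bcl2l11, 0.194 for Bbc3 and 0.299 for Pmaip1. Before adjustment 4 of the 8 had a limma p under 0.05, a count not made over all genes for these arrays. In the model over all arrays, 4 of the 8 members and 3484 of 19938 genes had an unadjusted limma p under 0.05. At 300 ng alone, with those 2 arrays against 17 native ones, 2 of the 8 passed, against 1.77% of all genes: Bcl2l11 at 1.04 (limma adjusted p = 0.0411) and Pmaip1 at 0.89 (limma adjusted p = 0.0482).

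**Figure D1:**
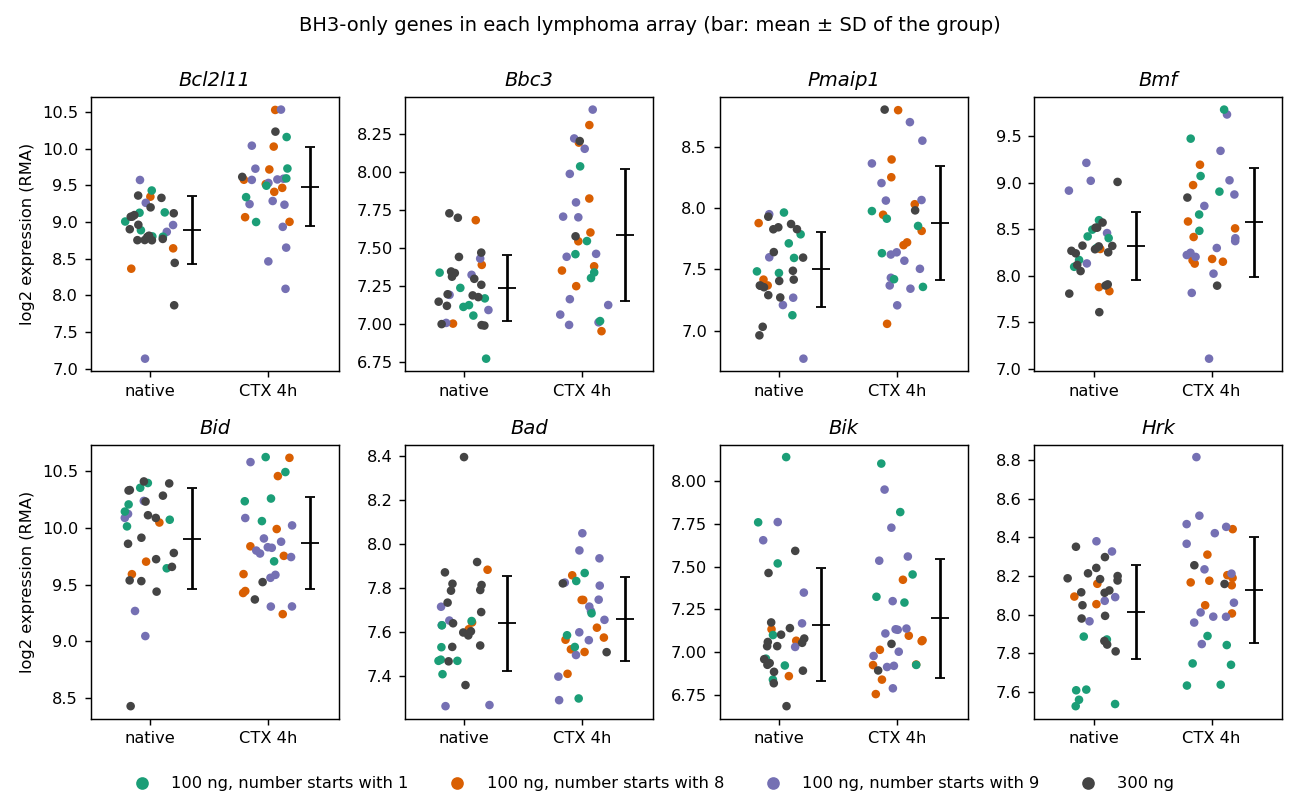
Log2 expression (RMA) of the 8 BH3-only genes in each array, native at the left and CTX 4h at the right of each panel, coloured by batch, with the mean ± SD of the group. Bcl2l11, Bbc3 and Pmaip1 reach above the native range in 15, 10 and 13 CTX 4h arrays, and the groups overlap for every gene.

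Bcl2l11 encodes BIM, which binds all survival BCL2 proteins and can activate BAX and BAK. Its log2 level in native lymphomas ran from 7.13 to 9.57 with a median of 8.93, and in CTX 4h arrays from 8.09 to 10.53 with a median of 9.53. Of the 31 CTX 4h arrays, 28 lay above the native median and 15 above the native maximum, so the groups overlapped over much of their range. The lowest native value was that of native replicate 8, which stood apart in other genes too. The difference was 0.64 ± 0.15 (SE) on the log2 scale, or 1.55-fold with a 95% interval of 1.27 to 1.90 (limma adjusted p = 0.00752, n = 31 and 32). Without native replicates 8 and 19 it was 0.54 with an adjusted p of 0.00827.

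Bbc3 encodes PUMA, which also binds every survival protein of the family. Native values ran from 6.77 to 7.73 with a median of 7.19, and CTX 4h values from 6.95 to 8.41 with a median of 7.54. Above the native median lay 24 of 31 CTX 4h arrays, and 10 exceeded the native maximum. The spread was wider in CTX 4h arrays, with an SD of 0.43 against 0.22 in native arrays, a difference that was not tested. The log2 difference was 0.41 ± 0.10 (SE), or 1.33-fold with a 95% interval of 1.16 to 1.52 (limma adjusted p = 0.0133).

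Pmaip1 encodes NOXA, which binds mainly MCL1 and A1. Native values ran from 6.77 to 7.96 with a median of 7.48, and CTX 4h values from 7.06 to 8.80 with a median of 7.85. In 24 of 31 CTX 4h arrays Pmaip1 exceeded the native median, and in 13 the native maximum. The log2 difference was 0.42 ± 0.11 (SE), or 1.34-fold with a 95% interval of 1.15 to 1.57 (limma adjusted p = 0.0278), and Pmaip1 did not pass with number series or batch as a term. Of the 3 called genes it depended most on 1 array: without CTX 4h replicate 30, a 300 ng array and the highest for Pmaip1 at 8.80, the difference was 0.35 and the adjusted p 0.11, and without CTX 4h replicate 31, the other 300 ng array, they were 0.42 and 0.0506. The former array was also the 1 whose removal ended the Bbc3 call, at an adjusted p of 0.0528 and a difference of 0.36.

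Hrk encodes Harakiri, a BH3-only protein best known from neurons and blood progenitors. It ran from 7.52 to 8.38 in native arrays, with a median of 8.08, and from 7.63 to 8.82 in CTX 4h arrays, with a median of 8.16, and 6 of 31 CTX 4h arrays lay above the native maximum. Its log2 difference of 0.19 ± 0.07 (SE) had a limma adjusted p of 0.158. Without native replicates 8 and 19 the adjusted p was 0.0449, where 12.5% of all genes passed in either direction. With array weights it was 0.00752, where 29.2% passed. In the other 20 of 22 alternatives Hrk did not pass. With first digit or batch as a term the difference was 0.086 (adjusted p = 0.686 and 0.683), without numbers starting with 1 it was 0.083 (adjusted p = 0.795), and with the small RNA score described below it was -0.020 (adjusted p = 0.912).

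Bmf encodes a protein that the dynein light chain holds at the actin cytoskeleton in healthy cells. It ran from 7.61 to 9.22 in native arrays, with a median of 8.29, and from 7.11 to 9.79 in CTX 4h arrays, with a median of 8.48. Its CTX 4h range enclosed the native one, with 4 arrays above it and 1 below. The log2 difference was 0.17 ± 0.14 (SE), with a limma adjusted p of 0.551. Bmf passed under 0 of 22 alternatives, but the difference moved widely: it was 0.35 with the small RNA score (unadjusted limma p = 0.0191, adjusted 0.356), 0.31 with macrophage and stromal scores (0.0450 and 0.297) and 0.029 without numbers starting with 1.

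Bid, whose protein is activated when caspase-8 cleaves it, had native values of 8.43 to 10.41 with a median of 10.06. The lowest was native replicate 19. The CTX 4h values ran from 9.24 to 10.62 with a median of 9.82, and 9 of 31 lay above the native median. The log2 difference was -0.10 ± 0.12 (SE, limma adjusted p = 0.717). Without native replicates 8 and 19 it was -0.17 (limma adjusted p = 0.279), and with the small RNA score described below 0.043 (0.924). Bad, held inactive by phosphorylation and 14-3-3 proteins, ran from 7.26 to 8.39 in native and from 7.29 to 8.05 in CTX 4h arrays, with medians of 7.63 and 7.66. Its log2 difference was 0.08 ± 0.06 (SE; limma adjusted p = 0.49). Bik, a protein that sits largely at the endoplasmic reticulum, ran from 6.68 to 8.14 in native and from 6.75 to 8.10 in CTX 4h arrays, with means of 7.16 and 7.20. Its log2 difference in the model with RNA input was -0.07 ± 0.10 (SE; limma adjusted p = 0.733), and without that term it was 0.039, the difference of the means. For these 3 the 95% intervals of the fold were 0.79 to 1.11 for Bid, 0.97 to 1.15 for Bad and 0.83 to 1.09 for Bik. No CTX 4h array exceeded the native range for Bad or Bik.

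**Figure D2:**
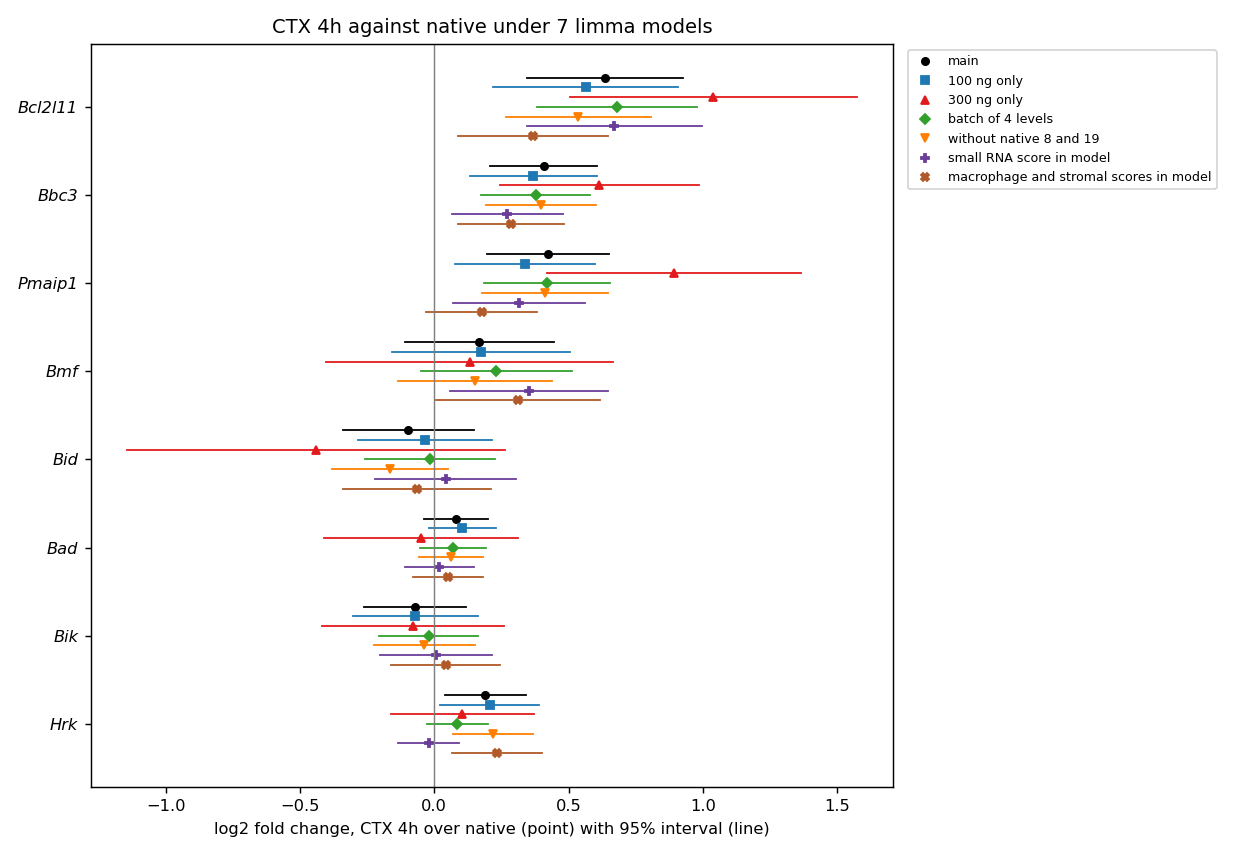
Log2 fold change of CTX 4h over native for each gene under 7 limma models, with 95% intervals as lines. In these 7 models every interval of Bcl2l11 and Bbc3 lies above 0, and that of Pmaip1 with macrophage and stromal scores crosses 0. The intervals are not adjusted for the number of genes. In a model not shown, with p53 target and glucocorticoid scores, they ran from -0.23 to 0.33 for Bcl2l11, -0.012 to 0.45 for Bbc3 and -0.12 to 0.40 for Pmaip1.

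Within the 4 batches, Bcl2l11 was higher in CTX 4h arrays in each: by 0.53 for numbers starting with 1, 0.81 for 8, 0.56 for 9 and 1.04 at 300 ng. Bbc3 differed by 0.34, 0.24, 0.38 and 0.61 in the same order, and Pmaip1 by 0.10, 0.41, 0.47 and 0.89. For Bcl2l11 both 300 ng CTX 4h arrays, at 9.61 and 10.23, lay above all 17 native arrays of 300 ng, whose maximum was 9.36. For Pmaip1, at 7.98 and 8.80, they also lay above the native maximum of 7.93. Their Bbc3 values of 7.57 and 8.20 overlapped the native maximum of 7.73. For how many of all genes these 2 arrays lay apart from the 17 was not counted. Hrk was also higher in all 4 batches, by 0.07 to 0.10. In exact two-sided permutation tests of the 8 genes in 4 batches, 8 of 32 had an unadjusted p under 0.05 and 0 passed adjustment over the 32. With 2 arrays against 17, the smallest p that the exact test can give is 0.0117. These exact tests were run on the 8 genes only, so no share over all genes stands beside their counts.

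Bmf had the widest range of differences over the 4 batches. In CTX 4h arrays it was higher by 0.71 for numbers starting with 1, where all 6 exceeded the native median, by 0.48 for 8 and by 0.13 at 300 ng. For numbers starting with 9 the difference was -0.29. A limma F test of treatment by number series at 100 ng gave Bmf an unadjusted p of 0.0222 and an adjusted p that rounded to 1, and 0 of 19938 genes passed adjustment, with 448 at an unadjusted p under 0.05. No member passed the test of treatment by RNA input, where 4 genes, 0.0201%, passed; the member with the smallest unadjusted p was Pmaip1 at 0.079.

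**Figure D3:**
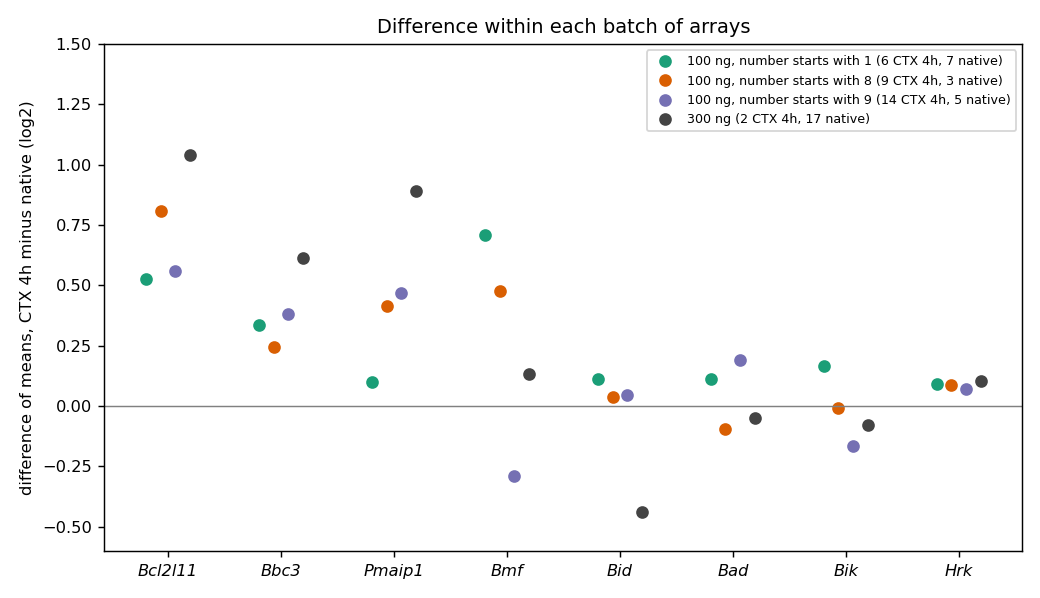
Difference of mean log2 expression, CTX 4h minus native, within each of 4 batches for each gene. The 4 points of Bcl2l11, Bbc3, Pmaip1 and Hrk lie above 0, and those of Bmf run from -0.29 to 0.71.

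In native lymphomas, mean brightness of the probe sets was in the order Bid (9.90 ± 0.45 SD), Bcl2l11 (8.88 ± 0.46), Bmf (8.32 ± 0.37), Hrk (8.02 ± 0.24), Bad (7.64 ± 0.22), Pmaip1 (7.50 ± 0.31), Bbc3 (7.24 ± 0.22) and Bik (7.16 ± 0.33), n = 32 each. Probe sets differ in affinity, so this order is one of brightness and not of transcript number. Bmf and Hrk, Bad and Pmaip1, Pmaip1 and Bbc3, and Bbc3 and Bik, neighbours in this order, differed by less than the larger SD of the pair. Relative to all genes, the brightness percentiles ran from 50.7 for Bik to 87.0 for Bid. Between the 32 native lymphomas Bcl2l11 and Bid had the largest SDs of the 8, at the 77.9th and 75.3rd percentile over all genes, and Bad and Bbc3 the smallest, at the 18.9th and 19.8th. The order at the top rested on native replicates 8 and 19. Without them Bmf had the largest SD, 0.38, followed by Bcl2l11 at 0.35 and Bid at 0.32, and Bad and Bbc3 still had the smallest, 0.21 and 0.22.

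No native lymphoma was high in most members: 10 of 32 arrays were in the top 5 for none, and 1, native replicate 1, for 4 genes, namely Bcl2l11, Bbc3, Pmaip1 and Bad. Hrk moved with the number series in native lymphomas, being higher by 0.54 ± 0.10 (SE) for numbers starting with 8 and by 0.45 ± 0.09 for 9 than for 1 (limma adjusted p = 1.62e-04 and 4.24e-04). Of all genes, 35.5% and 34.8% passed in these contrasts, and Hrk was the 1 member of 8 that did. For RNA input, 0 of 19938 genes passed in native arrays by limma, and 1831 had an unadjusted p under 0.05.

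Across lymphomas, values were centred on batch means and the 28 pairs of members compared with permutations within batches, 100000 in number. In the 32 native arrays 0 of 28 pairs passed adjustment, and 5 had an unadjusted p of r under 0.05. In the 31 CTX 4h arrays 2 passed. Bbc3 and Pmaip1 varied together, with r = 0.58 and rho = 0.64 (permutation p of r 0.00185, adjusted 0.0343; of rho 6.00e-04, adjusted 0.0168). Leaving out the 2 arrays farthest from the Bbc3 median gave r = 0.66. Within batches r was 0.85 for numbers starting with 8 and 0.53 for 9, but -0.29 for 1. In native arrays the same pair had r = 0.46, and the difference between groups was not tested. Bbc3 and Bmf varied inversely, with r = -0.55 and rho = -0.56 (permutation p of r 0.00245, adjusted 0.0343; of rho 0.00217, adjusted 0.0304), and r = -0.51 without the 2 farthest arrays. Within batches r was -0.64 for numbers starting with 1, -0.46 for 8 and -0.55 for 9.

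**Figure D4:**
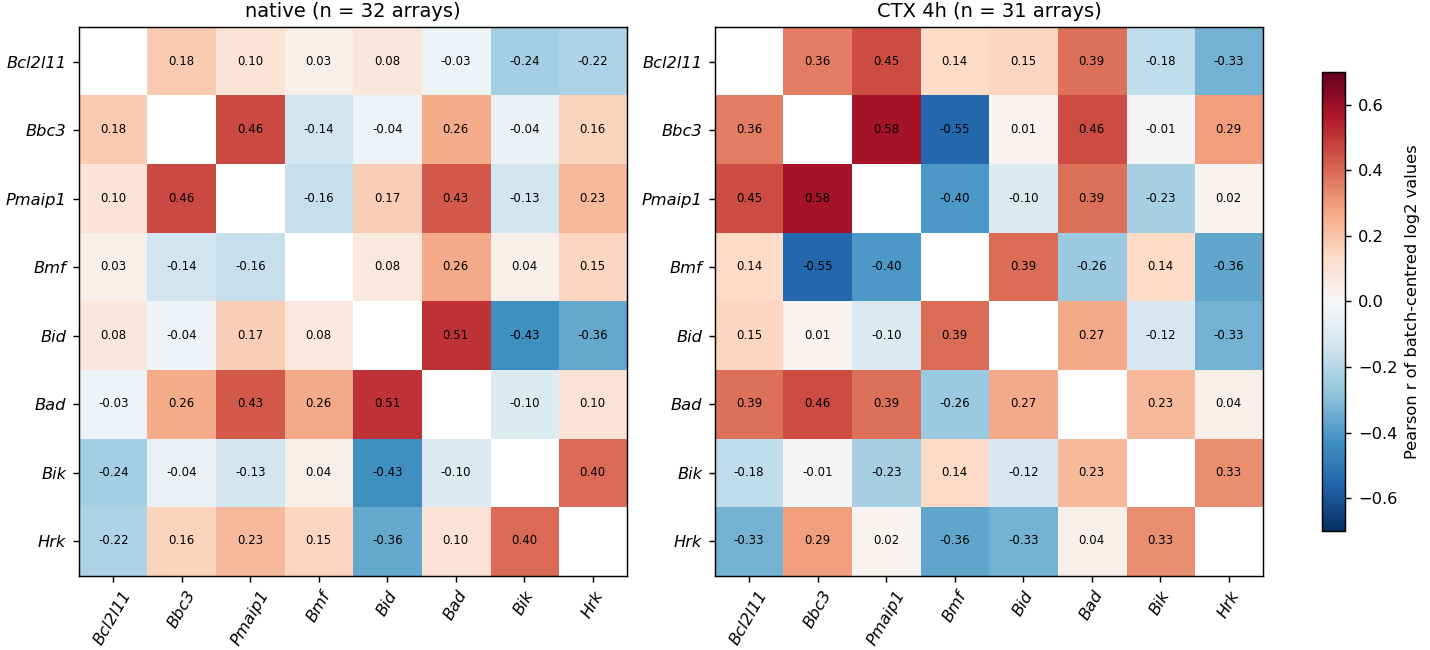
Pearson r of batch-centred log2 values for each pair of the 8 genes, over 32 native arrays at the left and 31 CTX 4h arrays at the right, with colour from blue (negative) to red (positive). Bbc3 with Pmaip1 at 0.58 and Bbc3 with Bmf at -0.55 are the 2 CTX 4h pairs that passed adjustment.

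The next 4 lists held survival BCL2 genes, pore-forming effectors, mitochondrial death machinery and proteins with distant BH3 motifs. Of their 24 genes 0 passed, which is close to the 2.67% over all genes. Of the survival BCL2 genes, 0 of 6 measured passed in either direction and 0 had an unadjusted limma p under 0.05, and Bcl2, the survival protein of follicular lymphoma, had the smallest p with a log2 difference of -0.26 ± 0.20 (SE; limma adjusted p = 0.526). Of the pore-forming effectors, 0 of 2 passed and 0 had an unadjusted p under 0.05, with Bak1 at -0.36 ± 0.18 (adjusted p = 0.288). The mitochondrial death machinery had 0 of 8, with 1 at an unadjusted p under 0.05, namely Diablo, which releases caspases from XIAP, at -0.31 (adjusted p = 0.147). Proteins with distant BH3 motifs had 0 of 8, with 2 at an unadjusted p under 0.05, in opposite directions. Rad9a, a checkpoint clamp subunit, was at -0.43 ± 0.13 (limma adjusted p = 0.0621), and Bnip3, a receptor for mitophagy, at 0.68 ± 0.26 (adjusted p = 0.147).

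Among 16 transcription regulators of BH3-only genes, 2 were higher and 0 lower, against 1.41% of all genes higher and 1.26% lower. Jun, an AP-1 subunit, was higher by 0.83 ± 0.14 (limma adjusted p = 3.20e-04), and Cebpb, a C/EBP factor, by 0.50 ± 0.09 (adjusted p = 6.75e-04). Of 18 regulators of the proteins, 1 was lower, against 1.26% of all genes: Fbxw7, a ubiquitin ligase substrate receptor, at -0.29 ± 0.08 (limma adjusted p = 0.0363). A count of 1 gene is too small to set this list apart from the background. Of 32 p53 target genes, 8 were higher and 0 lower, with a median log2 difference of 0.27, among them Ddit4 (0.96), Sesn2 (0.75) and Dcxr (0.32). Of 12 glucocorticoid-induced genes, 5 were higher, with a median of 0.48, among them Dusp1 (1.10) and Errfi1 (0.88); Ddit4 is in this list too. FOXO-induced genes had 0 of 15, with 5 at an unadjusted p under 0.05, among them Txnip at 0.44 (limma adjusted p = 0.096). At 100 ng alone, where 0.251% of all genes passed, 3 genes of these lists did: Ddit4 (0.95, limma adjusted p = 0.00435), which is in both the p53 and the glucocorticoid list, Dusp1 (0.90, 0.0283) and Cebpb (0.43, 0.0400).

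In CTX 4h arrays the 3 called genes followed the p53 target score, the mean over the list's genes, without the members, of each gene's log2 value less its mean over all arrays. Bcl2l11 had r = 0.73 and rho = 0.75 (permutation p 3.00e-05 for both, adjusted 0.0012), with r = 0.61 without the 2 farthest arrays and 0.41, 0.44 and 0.84 within numbers starting with 1, 8 and 9. Bbc3 had r = 0.60 and rho = 0.61 (adjusted permutation p 0.0138 and 0.016), with r = 0.62 without the 2 farthest arrays and 0.32, 0.67 and 0.69 within those series. Pmaip1 had r = 0.53 and rho = 0.57 (adjusted permutation p 0.0286 and 0.0222), with 0.47 and then 0.17, 0.36 and 0.71. In native arrays the r values were 0.42, 0.20 and 0.11; 0 of 40 relations passed, and 7 had an unadjusted p of r under 0.05. Whether the groups differ was not tested. Within CTX 4h arrays the same genes also followed the macrophage marker score described below, at r of 0.59 for Bcl2l11, 0.52 for Bbc3 and 0.62 for Pmaip1. How the p53 and macrophage scores vary with each other was not tested, so neither relation can be taken as particular to its list. In CTX 4h arrays 10 of 40 passed by r, and 9 of these by rho as well. FOXO-induced genes with Hrk, at r = -0.54, passed by r alone (rho = -0.40), and r was -0.30 without the 2 farthest arrays.

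**Figure D5:**
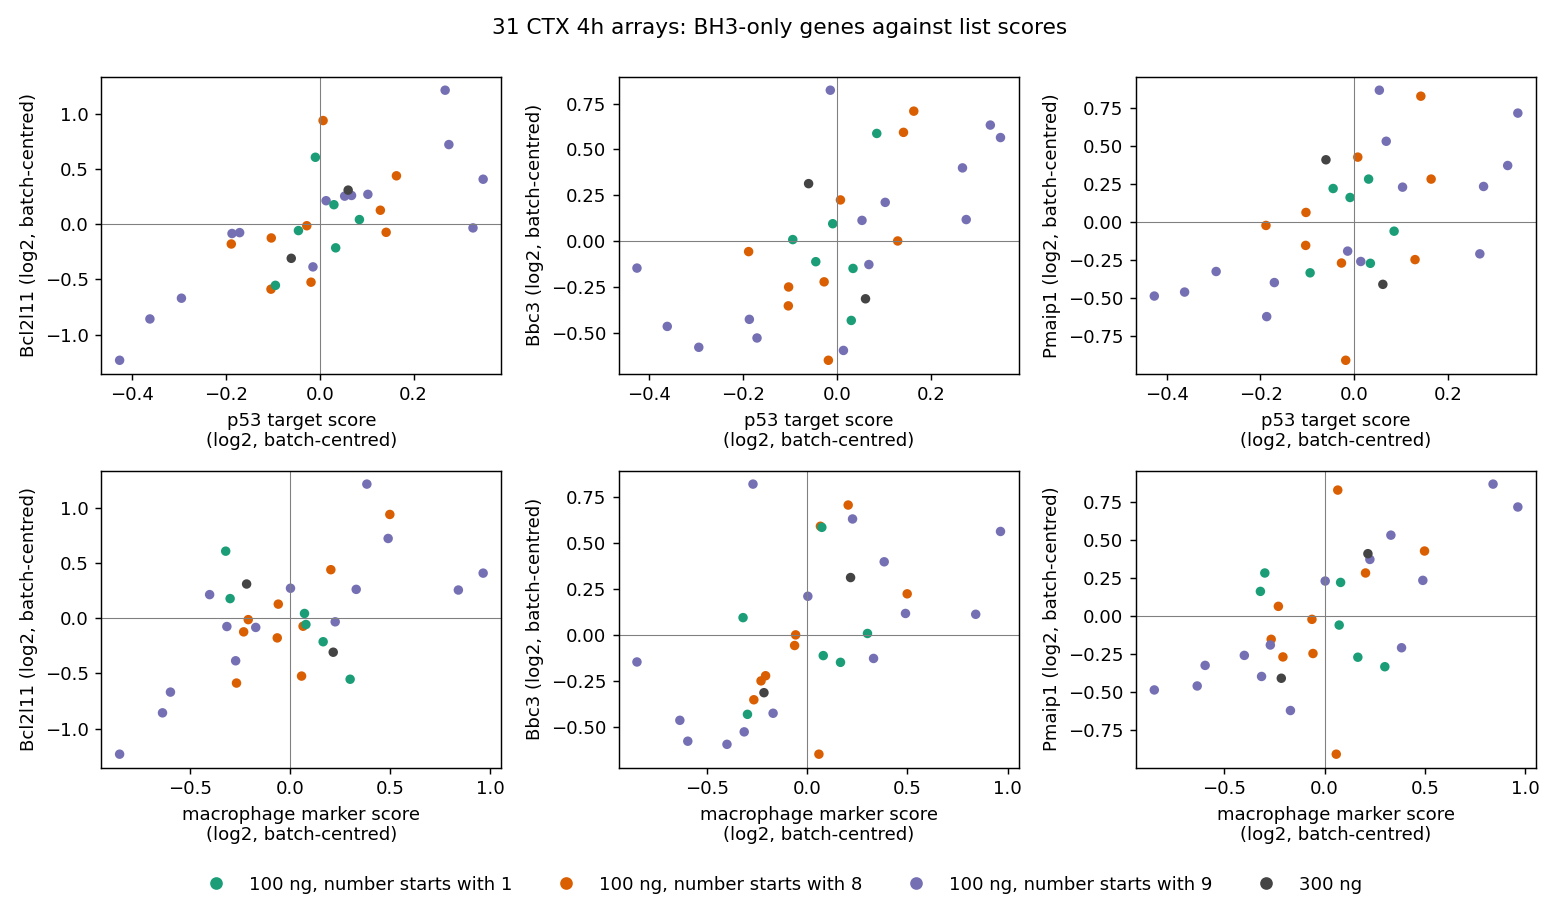
Batch-centred log2 expression of Bcl2l11, Bbc3 and Pmaip1 against the p53 target score (top) and the macrophage marker score (bottom) in 31 CTX 4h arrays, coloured by batch. The p53 panels have r of 0.73, 0.60 and 0.53; in the macrophage panels, numbers starting with 1 have r of -0.91 for Bcl2l11 and -0.81 for Pmaip1.

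Other signals moved with the members. Of 29 small nucleolar and other small RNAs, 19 were higher in CTX 4h arrays and 0 lower, with a median log2 difference of 0.89; at 100 ng alone 0 of 29 passed, with a median of 0.87. Their mean score, computed in the same way, ran from -2.11 to 0.86 in native and from -1.94 to 1.66 in CTX 4h arrays. It followed Bbc3 (r = 0.60) and, inversely, Bmf (r = -0.59) within CTX 4h arrays, both with an adjusted permutation p of 0.0138. The rho values were 0.50 and -0.53, and r without the 2 farthest arrays was 0.47 and -0.43. For numbers starting with 1, 8 and 9, r was -0.27, 0.88 and 0.58 for Bbc3 and -0.04, -0.42 and -0.69 for Bmf. It passed with Pmaip1 by rho alone (rho = 0.49, adjusted permutation p = 0.0491; r = 0.46, adjusted 0.0562), with r = 0.57 without the 2 farthest arrays and 0.15, 0.67 and 0.38 within those series. With this score as a term the adjusted p was 0.0617 for Bcl2l11, 0.315 for Bbc3 and 0.324 for Pmaip1 (limma), and the differences were 0.67, 0.27 and 0.32; 0.125% of all genes passed.

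Of 15 macrophage markers 2 were higher, Cd14 by 0.96 and Fcgr1 by 0.51, and the score ran from -0.53 to 0.46 in native and from -0.89 to 1.24 in CTX 4h arrays. Within CTX 4h arrays this score followed Pmaip1 (r = 0.62), Bcl2l11 (r = 0.59), Bad (r = 0.53) and Bbc3 (r = 0.52), with adjusted permutation p of 0.0104, 0.0175, 0.0291 and 0.0291. In that order rho was 0.59, 0.49, 0.52 and 0.60, and r without the 2 farthest arrays 0.54, 0.50, 0.37 and 0.50. Within numbers starting with 1, r was -0.81 for Pmaip1, -0.91 for Bcl2l11, 0.0010 for Bad and 0.26 for Bbc3, against 0.39, 0.78, 0.58 and 0.53 for 8 and 0.86, 0.77, 0.62 and 0.56 for 9. Of 12 stromal and endothelial markers 5 were higher, Col3a1 by 0.59, Col1a1 by 0.60 and Sparc by 0.54 among them, with scores of -0.64 to 0.46 in native and -0.65 to 0.94 in CTX 4h arrays. With both scores as terms the limma adjusted p was 0.182 for Bcl2l11, 0.144 for Bbc3 and 0.378 for Pmaip1, and the differences were 0.37, 0.29 and 0.18; 0.456% of all genes passed. The part of small RNAs, macrophages and stroma in the differences was not tested.

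Of 22 G2 and mitosis genes 10 were lower, including Kif2c at -1.01, Aurka at -1.03 and Plk1 at -1.23, and 0 of 22 passed at 100 ng alone. The remaining marker lists gave 2 of 9 adipocyte markers higher (Lpl, 1.17, and Fabp4, 0.88), 2 of 8 salivary markers higher (Amy1, 2.41, and Bpifa2, 2.87), 1 of 13 T-cell and NK-cell markers lower (Ncr1, -0.42), and 0 of 10 neutrophil and 0 of 9 pan-B-cell markers in either direction, of which 0 and 2 had an unadjusted limma p under 0.05. At 100 ng alone Cd14, Amy1 and Bpifa2 passed, and 0 of the stromal or adipocyte markers did. The part of these lists in the members' differences was not tested.

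The genes most like each member across native lymphomas were ranked by Pearson r of batch-centred values over 32 arrays, given as a description. For Bcl2l11 they were Rc3h2 (0.80), Ino80d (0.78) and Fbxo11 (0.77), which were 0.62, 0.61 and 0.57 without native replicates 8 and 19. For Bbc3 they were Fbxw4 (0.62), Twist1 (0.60) and Klhdc1 (0.59), whose r in CTX 4h arrays was 0.05, 0.23 and 0.04. For Pmaip1 they were Eml1 (0.70), Slc49a4 (0.67) and Slc27a3 (0.64), and in CTX 4h arrays 0.42, 0.39 and 0.70. Bmf was nearest to Lat2 (0.72), Acox3 (0.71) and A530040E14Rik (0.69), and Bid to Dnlz (0.90), Thumpd3 (0.89) and Nedd1 (0.89). Bad was nearest to Rnh1 (0.79), Tubgcp5 (0.76) and Rps4l (0.75), Bik to Cnmd (0.77), Mboat2 (0.75) and Cbs (0.75), and Hrk to Mir210 (0.84), Svip (0.83) and Megf6 (0.83). In CTX 4h arrays the 3 neighbours of Hrk had an r of 0.71 to 0.88. In the order named, r there was 0.61, 0.45 and 0.55 for those of Bcl2l11 and 0.43, 0.51 and 0.18 for those of Bmf. It was 0.61, 0.44 and 0.63 for the neighbours of Bid, 0.46, 0.0071 and 0.36 for those of Bad, and 0.30, 0.74 and 0.64 for those of Bik.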

How the data were processed

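The 63 arrays were Affymetrix mouse expression arrays. The authors deposited 1 table of expression on the log2 scale, made with RMA in Partek 6.5 per the submitters' processing notes. The sources used here do not say which arrays were normalized together, and scanner files were not used. Of the 35557 probe sets in the table, the platform annotation gave 21789 a single symbol, 1621 more than 1 and 12147 none; only the first kind was named, and a gene with several was represented by its brightest. Names and promoter windows came from RefSeq, build GRCm38.p6.

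Differences were fitted with limma 3.58.1 (R 4.3.3) with treatment and RNA input as terms and Benjamini-Hochberg adjustment over 19938 genes. Within batches, exact two-sided permutation tests were used (SciPy 1.17.1). Relations across arrays used 100000 permutations within batches, adjusted over 28 pairs or 40 list relations a group. Tested on simulated data for CTX 4h against native, the fit called 79 of 100 genes changed by a log2 of 0.5, 99 of 100 changed by 1 and 11 of 19738 unchanged ones. The simulated noise was independent between genes and arrays and held no effect of number series. These counts therefore check the fit and do not give its error rates on the real arrays. The number of arrays limits the precision. The members and lists, and the native arrays left out as alternatives, were chosen with earlier results of these data known. In each list, up to 3 genes past the threshold by p, or otherwise the gene of smallest p, were named, and for each member the 3 genes most like it in native arrays. In all, 22 other settings were tried, 3 of them chosen after seeing the data, besides leaving out each array.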

Additional observations from a re-analysis of the deposited data

How the results depend on the processing

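The differences of Bcl2l11, Bbc3 and Pmaip1 stayed positive under all 22 alternatives and with each of the 63 arrays left out. Their calls did not hold in all of these. Some alternatives could not move the differences: the mean of probe sets, all probe sets, genes above the median level, a trended robust variance and the test against a fold of 1.5. The 100 ng arrays alone and the fit without the 300 ng CTX 4h arrays give equal differences by design. No paired analysis was possible because each array has its own lymphoma number and the labels link no native array with a CTX 4h array. In this order of genes, the log2 differences were 0.56, 0.37 and 0.34 in 100 ng arrays alone, and likewise without the 300 ng CTX 4h arrays; 0.67, 0.27 and 0.32 with the small RNA score; and 0.37, 0.29 and 0.18 with macrophage and stromal scores, and none of the 3 passed in any of these. Tested against a fold of 1.5, the unchanged differences of 0.64, 0.41 and 0.42 all had a limma adjusted p of 1. In 300 ng arrays alone Bbc3, at 0.61, missed the threshold (limma adjusted p = 0.0853). Pmaip1 missed it with RNA input and first digit as terms (0.42, adjusted p = 0.0571), with batch as a term (0.42, 0.0618), with a common array median (0.39, 0.0656) and with the pan-B-cell score (0.36, 0.0732).

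Among the alternatives, 3 were chosen after seeing the data. With p53 target and glucocorticoid scores as terms the differences were 0.046 for Bcl2l11, 0.22 for Bbc3 and 0.14 for Pmaip1, with adjusted p of 0.856, 0.219 and 0.508. In 100 ng arrays without native replicates 8 and 19 they were 0.44, 0.36 and 0.32, with adjusted p of 0.122, 0.114 and 0.17. Without numbers starting with 1, Bbc3 (0.39, adjusted p = 0.171) and Pmaip1 (0.55, 0.0593) were lost, and Bcl2l11 had an adjusted p of 0.0491. The cause was not tested in any of these.

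Leaving out each array in turn, the differences ran from 0.53 to 0.68 for Bcl2l11, 0.36 to 0.44 for Bbc3 and 0.35 to 0.45 for Pmaip1, called in 63, 62 and 61 of 63. Signs turned for genes that did not pass: Bik was 0.039 without the input term, 0.0058 with the small RNA score, 0.042 with macrophage and stromal scores and 0.0077 with p53 and glucocorticoid scores; Bid was 0.043 and Hrk -0.020 with the small RNA score; Bad was -0.049 in 300 ng arrays.

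Counts over all genes, 281 higher and 251 lower, moved most. Higher and lower were 30 and 20 in 100 ng arrays, 142 and 66 with input and first digit, 144 and 66 with batch, 525 and 407 over all probe sets, 2151 and 3677 with array weights, 1 and 0 against a fold of 1.5, 838 and 1657 without native replicates 8 and 19, 65 and 51 without the 300 ng CTX 4h arrays, 23 and 2 with the small RNA score, 29 and 62 with macrophage and stromal scores, 155 and 118 with the pan-B-cell score, 65 and 105 in 100 ng arrays without native replicates 8 and 19, 181 and 629 with p53 and glucocorticoid scores, and 84 and 26 without numbers starting with 1. Higher calls were 118 without the input term, and lower calls 114 in 300 ng arrays and 145 with a common median. Leaving out 1 array gave 136 to 551 higher and 105 to 1034 lower; the lowest counts were without CTX 4h replicate 30 and the highest without native replicate 8. Without batch centring, 7 CTX 4h pairs and 3 native list relations passed. Over the 11 lists other than members and cell markers, 44 distinct genes were called with all arrays and 3 in 100 ng arrays.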
